A study of Homo sapiens with 10 samples.

Results

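TWIST1, PRRX1, SNAI2, ZEB1, RUNX1, RUNX2, TFAP2A and TEAD1 are transcription factor genes of mesenchymal and neural crest cells, and the chromatin around these 8 genes was examined for the proteins SMARCB1 and BRD9. A locus was the hg19 interval of the gene with 50 kb on each side. The 8 loci held 619 of the 543439 peaks in 8 deposited lists. They also held 106 of 119939 BRD9 regions, each the union of overlapping peaks of the 6 BRD9 lists, and 124 of 87773 SMARCB1 regions, each a merged stretch of SMARCB1 peaks to which both replicates contributed. The genes were listed by name and not by a cutoff on a measured value, but with earlier results of these data known. Counts at the loci are therefore a description. At the edge of the 50 kb reach, a BRD9 region 49.7 kb from SNAI2 was inside (1 GFP-induced list, 3.11 RPKM) and another 50.7 kb from it was outside (1 SMARCB1-induced list, 2.58 RPKM). RPKM is a read density, counted per kb of peak and scaled to M reads sequenced.

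The cells were G401, an established human rhabdoid tumour line whose genotype is given as SMARCB1(-/-). Doxycycline, the inducer, switched on either SMARCB1 or, as the control, green fluorescent protein (GFP). CUT&RUN, in which an antibody tethers a nuclease that releases the bound DNA for sequencing, gave 3 lists for BRD9 in GFP-induced cells, 3 for BRD9 in SMARCB1-induced cells and 2 for SMARCB1 in SMARCB1-induced cells. SMARCB1 in GFP-induced cells and an IgG sample were not analysed here. All groups are 1 cell line that lacks its own SMARCB1, and the restored protein came from an inducible construct. Nothing says whether replicates were separate cultures, so p-values measure the spread among these samples, which may be technical. BRD9 libraries held 10.1 to 13.9 M reads and SMARCB1 libraries 59.7 and 64.2 M reads.

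The SWI/SNF complexes slide and evict nucleosomes at promoters and enhancers. SMARCB1 is a subunit of the canonical BAF and PBAF forms, and its loss is the founding lesion of rhabdoid tumours. BRD9 is a bromodomain protein of the non-canonical form, which does not contain SMARCB1. The 8 genes fall into a few roles. TWIST1, SNAI2 and ZEB1 are E-box binding factors known for driving epithelial to mesenchymal transition. PRRX1 is a homeobox factor of limb and craniofacial mesenchyme. RUNX1 and RUNX2 are Runt-domain factors of blood formation and of bone formation, respectively. TFAP2A is a regulator of neural crest and surface ectoderm, and TEAD1 is the DNA-binding partner of the Hippo pathway coactivators YAP and TAZ.

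Over the 8 loci together, BRD9 peaks were more numerous in SMARCB1-induced cells. GFP-induced lists held 25, 22 and 21 peaks and SMARCB1-induced lists held 56, 40 and 54 peaks. These totals did not overlap between the groups. RUNX2, TFAP2A and TEAD1 carried the additional peaks, whereas TWIST1, PRRX1, SNAI2, ZEB1 and RUNX1 held few or no BRD9 peaks that recurred between lists. Peak number was higher in all 3 SMARCB1-induced lists without overlap at RUNX2, TFAP2A and TEAD1, as in 22.3% of the 10686 windows with a peak. In the edgeR quasi-likelihood fit of reads in called peaks over 8113 genome windows (of 200 kb, with the loci as windows of their own, and at least 10 reads in 3 lists), 5 loci met the filter: ZEB1, RUNX1, RUNX2, TFAP2A and TEAD1. TFAP2A and TEAD1 had over 10 reads in every list, and both were higher in SMARCB1-induced cells at a Benjamini-Hochberg false discovery rate (FDR) of 0.05. RUNX2 also passed, but it met the filter only through the group in which it was high, so its call is given as a description. By the same rule 20.4% of all windows were higher and 4.31% were lower. The 2 that did not pass either way, ZEB1 and RUNX1, had unadjusted p-values of 0.26 and 0.094 in the edgeR fit, and DESeq2 called neither.

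**Figure D1:**
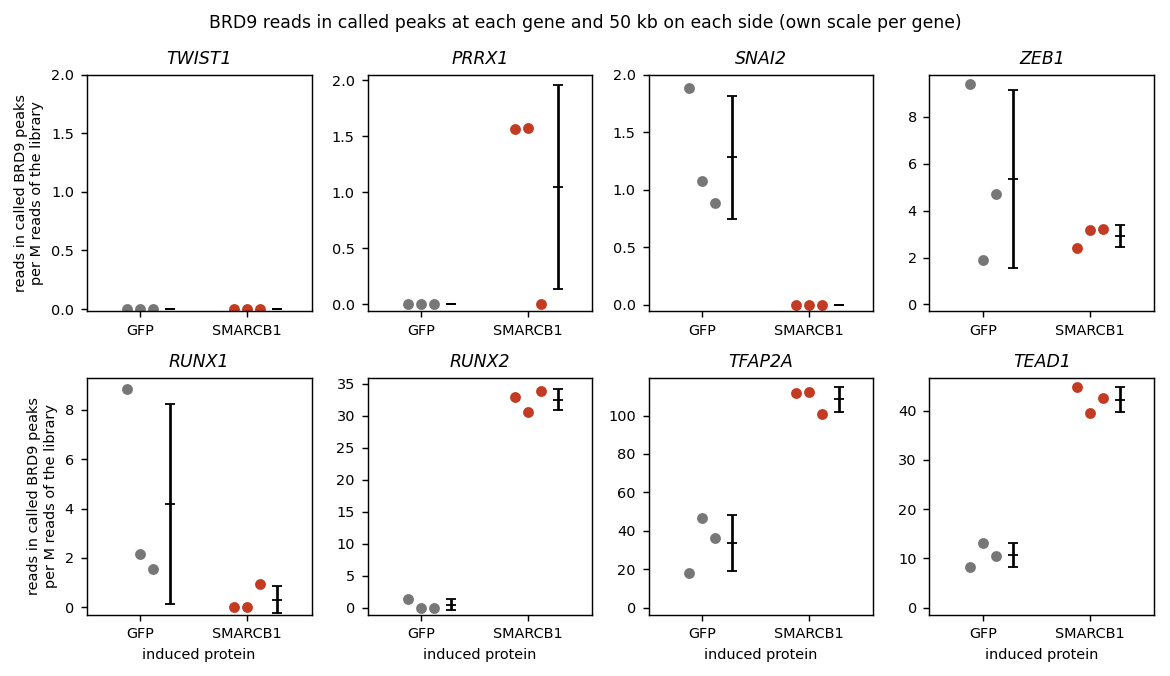
BRD9 reads in called peaks per M reads of the library (vertical axis, own scale per gene) at each locus, by list, for GFP-induced (grey) and SMARCB1-induced (red) cells, with the mean and SD of 3 lists beside them. The SMARCB1-induced lists sit above all GFP-induced lists at RUNX2 (30.7 to 34.0 against 0 to 1.41), TFAP2A and TEAD1, and at ZEB1 the groups overlap.

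Single regions were then compared. A BRD9 region was called gained when it held a peak in 3 of 3 SMARCB1-induced lists and 0 of 3 GFP-induced lists, and lost in the opposite case. Gained regions numbered 16 of 106 (15.1%, against 6.85% of all BRD9 regions), with 8 at RUNX2, 4 at TFAP2A, 3 at TEAD1 and 1 at ZEB1. They were 57.1% of the 28 regions called in 3 of 3 SMARCB1-induced lists (48.2% genome-wide). Lost regions numbered 0 (1.04% of all regions). Regions called in all 6 lists numbered 4, all at TFAP2A (3.77%, against 4.67% of all regions). A further 61 regions were called in 1 list alone (57.5%, against 62.9%), of which 33 came from GFP-induced lists, 17 of them from replicate 1. Genome-wide, 44522 of the 75454 regions called in 1 list alone came from GFP-induced lists, 20362 of them from replicate 1. The counts depend on the call rule: 27 regions were gained when 2 of 3 lists sufficed (15138 genome-wide, against 8217), and 8 when the lower-scoring peaks of each list were left out (5415 genome-wide).

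RUNX2, the master regulator of osteoblast differentiation, had almost no called BRD9 in GFP-induced cells and a chain of peaks along the gene in SMARCB1-induced cells. GFP-induced lists held 1, 0 and 0 peaks there and SMARCB1-induced lists held 10, 9 and 10. Reads in called peaks were 1.41, 0 and 0 per M reads in GFP-induced cells and 33.0, 30.7 and 34.0 per M reads in SMARCB1-induced cells. The groups lie far apart, and the single GFP-induced peak (chr6:45283355-45283723, 15 reads) lay 12.5 kb upstream of the start, where no SMARCB1-induced list had a BRD9 peak. The edgeR adjusted p was 0.026, and 0.023 with no filter on reads, but 2 of the 3 GFP-induced values are 0 because no peak was called, so this p is no independent support. Covered length was 0.123 and 8.47 kb on average. The fitted log2 difference of 6.10 ± 1.41 (SE) is no measured fold, because a list without a peak enters as 0 whatever reads it holds below its calling threshold.

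Along RUNX2 the 8 gained regions lay from 49.7 kb to 267 kb after the start, 6 in the gene body and 2 downstream. The region chr6:45383820-45385276, 88.5 kb into the gene, had densities of 4.42, 4.64 and 3.90 RPKM in the SMARCB1-induced lists (4.32 ± 0.38, SD, n = 3) against 0.72 RPKM in the control library. The region chr6:45421301-45422776, 126 kb in, had 3.52, 5.13 and 4.24 RPKM (4.30 ± 0.81). Beyond the end of the gene, chr6:45557781-45560215, 263 kb from the start, had 3.97, 4.67 and 4.34 RPKM (4.33 ± 0.35) and the highest mean density of the locus. None of these intervals held a called peak in a GFP-induced list. SUPT3H, which encodes a subunit of the SAGA coactivator, overlaps RUNX2 in RefSeq GRCh38.p14, so peaks in that gene body cannot be assigned to RUNX2 alone.

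SMARCB1 was broad at RUNX2, with 32 regions that covered 23.1% of the locus (5.77% of the genome). Replicates held 47 and 57 SMARCB1 peaks. All 8 gained BRD9 regions lay in SMARCB1 regions, and the highest of these by SMARCB1 density, chr6:45557226-45561151, had 2.27 and 2.60 RPKM against 0.34 RPKM in its control. The start of RUNX2 showed the other arrangement. A SMARCB1 region of 9400 bp, chr6:45290076-45299476, spanned it at 1.53 and 1.68 RPKM (control 0.33), wider than 98.0% of SMARCB1 regions, and held a BRD9 peak in 0 of 6 lists. In all, 21 of the 32 SMARCB1 regions at RUNX2 held no BRD9 peak in any list (65.6%), close to the 63.1% of all SMARCB1 regions.

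The RUNX2 promoters are shown because the gene start carried SMARCB1 without called BRD9, and because RUNX factors are known to act at RUNX2's own distal promoter. Sequences are the 250 bases before a transcript start, from RefSeq GRCh38.p14, a later build than that of the peaks, and were not placed on the peak intervals. Capitals mark matches, on either strand, to TGTGGT (RUNX), GGAATG (TEAD), CAGCTG or CACCTG (E-boxes) or TGANTCA (AP-1). The distal start is chr6:45328080-45328329 and the proximal chr6:45422025-45422274, both on the plus strand.
RUNX2 distal: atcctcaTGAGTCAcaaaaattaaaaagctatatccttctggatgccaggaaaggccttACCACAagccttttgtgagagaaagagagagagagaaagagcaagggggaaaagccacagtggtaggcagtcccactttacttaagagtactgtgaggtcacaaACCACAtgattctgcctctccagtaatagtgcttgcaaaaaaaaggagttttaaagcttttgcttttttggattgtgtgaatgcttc
RUNX2 proximal: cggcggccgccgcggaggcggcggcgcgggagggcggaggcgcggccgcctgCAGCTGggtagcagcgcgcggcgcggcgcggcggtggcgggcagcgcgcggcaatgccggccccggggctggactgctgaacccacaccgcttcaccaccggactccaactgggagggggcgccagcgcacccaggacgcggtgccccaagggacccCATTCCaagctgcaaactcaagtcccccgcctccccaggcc
The distal sequence held 2 RUNX matches, both as the reverse complement, and 1 AP-1 match. The proximal sequence held 1 E-box CAGCTG and 1 TEAD match, also reversed. Over 35116 promoter sequences of the same length, 10.98% held the RUNX letters, 11.9% the TEAD letters, 14.0% CAGCTG, 17.5% CACCTG and 6.57% the AP-1 letters. A match is a description of the letters and not evidence of binding.

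TFAP2A, the neural crest and ectoderm factor, was the locus with the most BRD9 in both conditions. GFP-induced lists held 6, 11 and 11 peaks and SMARCB1-induced lists held 23, 17 and 22. Reads in called peaks were 18.1, 46.7 and 36.3 per M reads in GFP-induced cells and 112, 112 and 101 per M reads in SMARCB1-induced cells. The groups did not overlap, and GFP-induced replicate 1 was the lowest list. The fitted log2 difference of the sum was 1.69 ± 0.35 (SE; edgeR, adjusted p = 0.020). This compares sums over peaks called in each list separately, with uncalled intervals entered as 0, and is no measured fold. The called peaks covered 7.83 ± 2.51 kb in GFP-induced and 22.1 ± 1.18 kb in SMARCB1-induced cells (SD, n = 3). Mean density over that length was 4.199 ± 0.684 and 4.93 ± 0.54 RPKM, a smaller difference than that in length. The median over all 8113 windows was 0.48, or 0.37 with TMM scaling, and 66.7% of windows had a smaller difference than TFAP2A.

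The 4 regions called in all 6 lists allow a density comparison in which every list has a value. The region chr6:10462751-10465039, 44.1 kb upstream, had 3.63, 6.24 and 3.44 RPKM in GFP-induced cells and 8.15, 8.87 and 6.40 RPKM in SMARCB1-induced cells. The region chr6:10440626-10442743, 21.9 kb upstream, had 3.53, 5.46 and 4.69 RPKM against 7.14, 7.32 and 6.59 RPKM. In both, each SMARCB1-induced list was above each GFP-induced list, as in 3.82% of the 5598 regions called in all 6 lists (19.4% were lower without overlap). In limma over all of these regions, the log2 differences were 0.86 ± 0.22 (SE, adjusted p = 0.064) and 0.64 ± 0.19 (adjusted p = 0.11), so neither passed, although both had an unadjusted p under 0.05. The other 2, chr6:10434301-10435914 upstream and chr6:10373463-10376264 downstream, differed by 0.30 ± 0.20 (adjusted p = 0.45) and 0.09 ± 0.18 (adjusted p = 0.82), and their groups overlapped. These densities divide reads by the length that each list called. Not divided by length, the downstream region had 1.88, 6.03 and 5.68 reads per M reads in GFP-induced cells and 10.2, 9.17 and 11.2 in SMARCB1-induced cells, without overlap (12.4% of all such regions were higher in this way), and a log2 difference of 1.34 ± 0.46 (SE, limma adjusted p = 0.12). Of all such regions 0.464% passed as higher and 1.02% as lower in density in SMARCB1-induced cells, and their median difference was -0.16. With each list's median over these regions set equal, a setting that moves that median to -0.02, the 2 far upstream regions passed (adjusted p = 0.0091 and 0.016), as they did without GFP-induced replicate 2 (0.00029 and 0.0054). That list was the highest of its group in both regions. With any other list left out neither passed (limma adjusted p = 0.080 to 0.33 and 0.20 to 0.35). Not divided by length, neither passed (limma adjusted p = 0.076 and 0.22).

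Gained regions at TFAP2A had lower mean densities in SMARCB1-induced cells than the 4 regions called in all 6 lists. The gained region with the highest score, chr6:10368918-10369683, lay 50.5 kb after the start, beyond the gene's end, at 3.37, 3.85 and 3.40 RPKM (3.54 ± 0.26, SD, n = 3). Within the gene, chr6:10399994-10401639 had 3.58, 2.74 and 2.96 RPKM (3.09 ± 0.43) and chr6:10409068-10409890 had 3.44, 3.12 and 2.73 RPKM (3.10 ± 0.36). Control densities in the 4 gained regions were 0.44 to 0.94 RPKM. The widest change was in the gene body. The region chr6:10403554-10408469 held 293, 272 and 328 reads in the SMARCB1-induced lists and, in the GFP-induced lists, 58 reads in replicate 2 with no called peak in replicates 1 and 3.

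SMARCB1 covered 48.1% of the TFAP2A locus in 20 regions, more of it than in 98.4% of the 200 kb windows of the genome. One SMARCB1 region of 16700 bp, chr6:10393451-10410151, took in most of the gene and the interval after its end. SMARCB1 density was highest upstream, in chr6:10462651-10465401, at 2.35 and 3.00 RPKM (control 0.47), over the same interval as the densest BRD9 region. No SMARCB1 or BRD9 region spanned the annotated start, taken as the outer end of the hg19 gene interval. The gained BRD9 region chr6:10412292-10412952, 7.18 kb into the gene, lay in the SMARCB1 region chr6:10412051-10417276. All 4 gained regions and all 4 regions called in all 6 lists lay in SMARCB1 regions. RefSeq lists 2 TFAP2A promoters, and neither held any of the motifs. They were not placed on the peak intervals, so neither can be called free of SMARCB1 or BRD9.

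TEAD1, the Hippo pathway factor, had called BRD9 in both conditions, more of it after SMARCB1 induction. GFP-induced lists held 3, 6 and 5 peaks and SMARCB1-induced lists held 20, 12 and 17. Reads in called peaks were 8.28, 13.1 and 10.6 per M reads in GFP-induced cells and 44.7, 39.6 and 42.5 per M reads in SMARCB1-induced cells. The groups did not overlap. The fitted log2 difference of the sum was 1.99 ± 0.25 (SE; edgeR, adjusted p = 0.0041), and 70.0% of all windows had a smaller difference. As at TFAP2A this is no measured fold. The called peaks covered 3.19 ± 0.55 kb in GFP-induced and 11.8 ± 1.18 kb in SMARCB1-induced cells, at a mean density of 3.32 ± 0.19 and 3.59 ± 0.26 RPKM (SD, n = 3). The calls at RUNX2 and TFAP2A were lost without any 1 of the 3 SMARCB1-induced lists, and that at TEAD1 without replicate 2 or 3. Without replicate 1, 2 or 3 of that group, adjusted p in edgeR was 0.11, 0.15 and 0.14 for RUNX2, 0.096, 0.13 and 0.11 for TFAP2A, and 0.044, 0.059 and 0.053 for TEAD1, while the windows called higher across the genome fell from 1657 to 170, 106 and 159. The filter still asked for 3 lists, so windows with called BRD9 only in SMARCB1-induced cells could not enter. Windows tested fell from 8113 to 6724, 6798 and 6740. The differences kept their direction, with 5.49 as the lowest log2 difference for RUNX2, 1.38 for TFAP2A and 1.83 for TEAD1 over all lists left out in turn.

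BRD9 was gained just upstream of the TEAD1 start. The region chr11:12692451-12694026, 2.73 kb upstream, had 4.80, 4.998 and 3.33 RPKM in the SMARCB1-induced lists (4.38 ± 0.91, SD, n = 3) and no called peak in GFP-induced cells. Over the start itself, chr11:12695831-12696404 was called in 2 of 3 SMARCB1-induced lists (3.27 and 2.97 RPKM) and in 0 of 3 GFP-induced lists. A SMARCB1 region of 4150 bp, chr11:12692376-12696526, spanned both at 1.92 and 2.25 RPKM (control 0.41). Within the gene, chr11:12819901-12823201, 126 kb in, was gained at 4.09, 3.71 and 3.34 RPKM (3.71 ± 0.38), and chr11:12951776-12952760, 256 kb in, at 3.33, 3.05 and 2.41 RPKM (2.93 ± 0.47). The densest BRD9 region of the locus, chr11:12714051-12714530, was called in 1 GFP-induced list (5.30 RPKM) and 2 SMARCB1-induced lists (4.87 and 6.17 RPKM), over a control of 2.64 RPKM. Among regions called in more than 1 list, 1 went the other way: chr11:12667551-12668676, 27.9 kb upstream, had 3.81, 3.82 and 2.87 RPKM in GFP-induced cells and a call in 1 of 3 SMARCB1-induced lists (2.75 RPKM). Regions called in 1 list alone numbered 3 from GFP-induced and 11 from SMARCB1-induced lists.

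SMARCB1 was also dense over TEAD1, where 49 regions covered 38.5% of the locus. The highest density was in chr11:12696851-12702901, just after the start, at 2.52 and 3.00 RPKM (control 0.40). The widest region, chr11:12703351-12718301, was 14950 bp. Of the 49 regions 30 held no BRD9 peak in any list (61.2%, against 63.1% of all SMARCB1 regions), and 6 held one in 3 of 3 SMARCB1-induced lists.

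**Figure D2:**
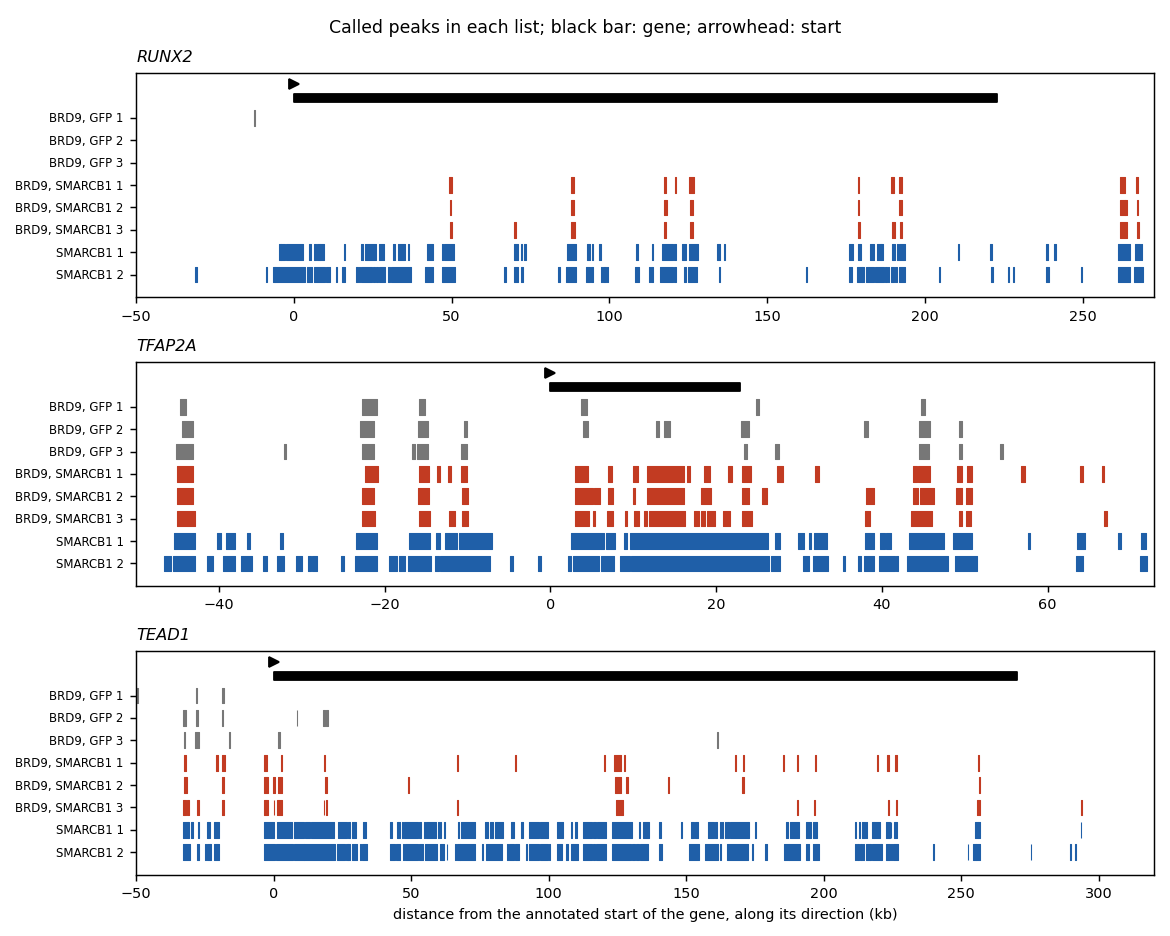
Called peaks in each of the 8 lists along RUNX2, TFAP2A and TEAD1, by distance in kb from the annotated start in the direction of the gene, with BRD9 in GFP-induced (grey) and SMARCB1-induced (red) cells and SMARCB1 (blue). RUNX2 shows 1 grey peak against 9 or 10 red peaks per list, and most red peaks at the 3 genes stand above blue ones.

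ZEB1, a zinc finger repressor of epithelial genes, had 1 recurring BRD9 site, at its start. The gained region chr10:31607917-31608693 had 2.59, 4.07 and 3.58 RPKM in the SMARCB1-induced lists (3.41 ± 0.75, SD, n = 3; 15, 32 and 11 reads) against a control of 1.15 RPKM. It lay in a SMARCB1 region, chr10:31606826-31608726, with 1.31 and 1.66 RPKM (control 0.43). Of the 16 gained regions it was the only one over an annotated start, taken as the outer end of the hg19 gene interval. Other RefSeq starts within a gene were not placed on the peaks. The other 15 BRD9 regions of ZEB1 were each called in 1 list alone, 11 of them in a GFP-induced list. Peaks numbered 6, 2 and 3 in GFP-induced and 2, 1 and 4 in SMARCB1-induced lists. Reads in called peaks, 9.41, 1.90 and 4.70 per M reads against 2.39, 3.16 and 3.24, overlapped between the groups (log2 difference -0.86 ± 0.70, SE, edgeR adjusted p = 0.43). The densest of the single-list regions, chr10:31796273-31796607, had 3.52 RPKM in GFP-induced replicate 3.

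SMARCB1 lay in 17 regions over 8.50% of the ZEB1 locus, with the highest density at chr10:31632551-31636601 (1.42 and 1.75 RPKM, control 0.29), an interval with 0 BRD9 peaks. Of the 17 regions 13 held no BRD9 peak in any list (76.5%, against 63.1% of all SMARCB1 regions). RefSeq lists 7 promoters for ZEB1, of which 3 held a motif match. The one with the most matches, chr10:31318966-31319215 of GRCh38.p14 on the plus strand, is shown because BRD9 was gained over the start and CACCTG is the class of E-box that ZEB1 itself binds. It was chosen after its matches were counted.
ZEB1: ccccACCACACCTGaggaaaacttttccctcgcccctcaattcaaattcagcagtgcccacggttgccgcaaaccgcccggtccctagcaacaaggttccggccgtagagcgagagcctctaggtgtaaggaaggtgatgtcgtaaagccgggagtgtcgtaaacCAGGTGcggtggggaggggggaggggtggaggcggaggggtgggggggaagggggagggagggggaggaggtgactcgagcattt
It held 2 matches to CACCTG, 1 of them reversed, and 1 reversed RUNX match that overlaps the first E-box.

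RUNX1, the Runt factor of blood stem cells, contrasted with RUNX2. GFP-induced lists held 7, 2 and 1 BRD9 peaks and SMARCB1-induced lists held 0, 0 and 1. Per M reads, called peaks held 8.85, 2.15 and 1.57 reads against 0, 0 and 0.935. Covered length, too, was lower in all SMARCB1-induced lists without overlap (8.02% of windows with a peak were, and 28.9% were higher). GFP-induced replicate 1 supplied most of the peaks, and no region was called in more than 1 list. Genome-wide, GFP-induced replicate 1 also held the most regions called in 1 list alone (20362, against 9085 to 13251 in the other BRD9 lists). The log2 difference of -3.67 ± 1.86 (SE) did not pass in edgeR (adjusted p = 0.22). RUNX1 met the filter on reads through the 3 GFP-induced lists, the group in which it was high. The densest region, chr21:36373596-36374011, had 3.78 RPKM in GFP-induced replicate 3.

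The 10 GFP-induced regions of RUNX1 were narrow, 264 to 825 bp, and 0 of them lay in a SMARCB1 region. Of all BRD9 regions called in 1 GFP-induced list alone, 12.7% overlapped SMARCB1. SMARCB1 was sparse, with 2 regions over 0.360% of the locus. One, chr21:36323126-36323701, was the denser at 1.39 and 1.25 RPKM (control 0.40). The other, chr21:36260551-36261276, lay 161 kb into the gene at 1.18 and 1.42 RPKM and held the single SMARCB1-induced BRD9 peak, chr21:36260926-36261251, at 2.88 RPKM in replicate 3. The RefSeq promoter of RUNX1, chr21:34888700-34888949 of GRCh38.p14 on the minus strand, is shown beside those of RUNX2 as the family member without recurring BRD9. This promoter was not placed on the hg19 peak intervals. It may lie inside the gene rather than at the annotated start, so it cannot be called free of SMARCB1 or BRD9.
RUNX1: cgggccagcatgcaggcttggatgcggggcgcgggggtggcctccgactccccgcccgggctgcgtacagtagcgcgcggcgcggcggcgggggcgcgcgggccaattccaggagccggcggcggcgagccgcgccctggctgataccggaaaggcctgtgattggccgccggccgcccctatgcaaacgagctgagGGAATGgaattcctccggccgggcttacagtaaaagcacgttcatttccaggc
It held 1 TEAD match and no RUNX match.

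PRRX1, SNAI2 and TWIST1 had too few reads in called peaks for the edgeR filter. PRRX1, the mesenchymal homeobox gene, had 1 BRD9 region, chr1:170748769-170749326, downstream of the gene and 116 kb from its start. It was called in 2 of 3 SMARCB1-induced lists (3.91 and 2.89 RPKM, 19 and 16 reads) and in 0 of 3 GFP-induced lists, and it lay in 1 of the 3 SMARCB1 regions of the locus. Those 3 regions covered 1.46% of the locus, with the highest density at chr1:170658551-170659176 (1.28 and 1.31 RPKM, control 0.51). With no filter on reads, the edgeR adjusted p for PRRX1 was 0.22.

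SNAI2, the Slug gene of neural crest delamination, had BRD9 peaks called in GFP-induced lists and none in SMARCB1-induced lists. They numbered 2, 1 and 1 against 0, 0 and 0, and reads in called peaks were 1.88, 1.07 and 0.881 per M reads against 0 in each SMARCB1-induced list. All 4 were 36.1 to 49.9 kb upstream, 300 to 348 bp wide, in separate places, and each in 1 list alone. The densest, chr8:49883701-49884034, had 3.11 RPKM. SMARCB1 had 0 peaks in either replicate there. The exact permutation p for SNAI2 peak number was 0.1, the smallest that 3 lists against 3 allow, and with no filter the edgeR adjusted p was 0.11. Among the windows with a peak, 7.13% were lower in all SMARCB1-induced lists without overlap.

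TWIST1, the bHLH gene of cranial mesenchyme, had 0 BRD9 peaks in all 6 lists. SMARCB1 had 1 peak in replicate 1 and 6 in replicate 2. One region was shared, chr7:19161626-19162076, 4.56 kb upstream, at 1.45 and 1.38 RPKM. Its control density was 0.91 RPKM, so its ratio to the control was 1.56, against a median of 3.93 over the 124 SMARCB1 regions.

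**Figure D3:**
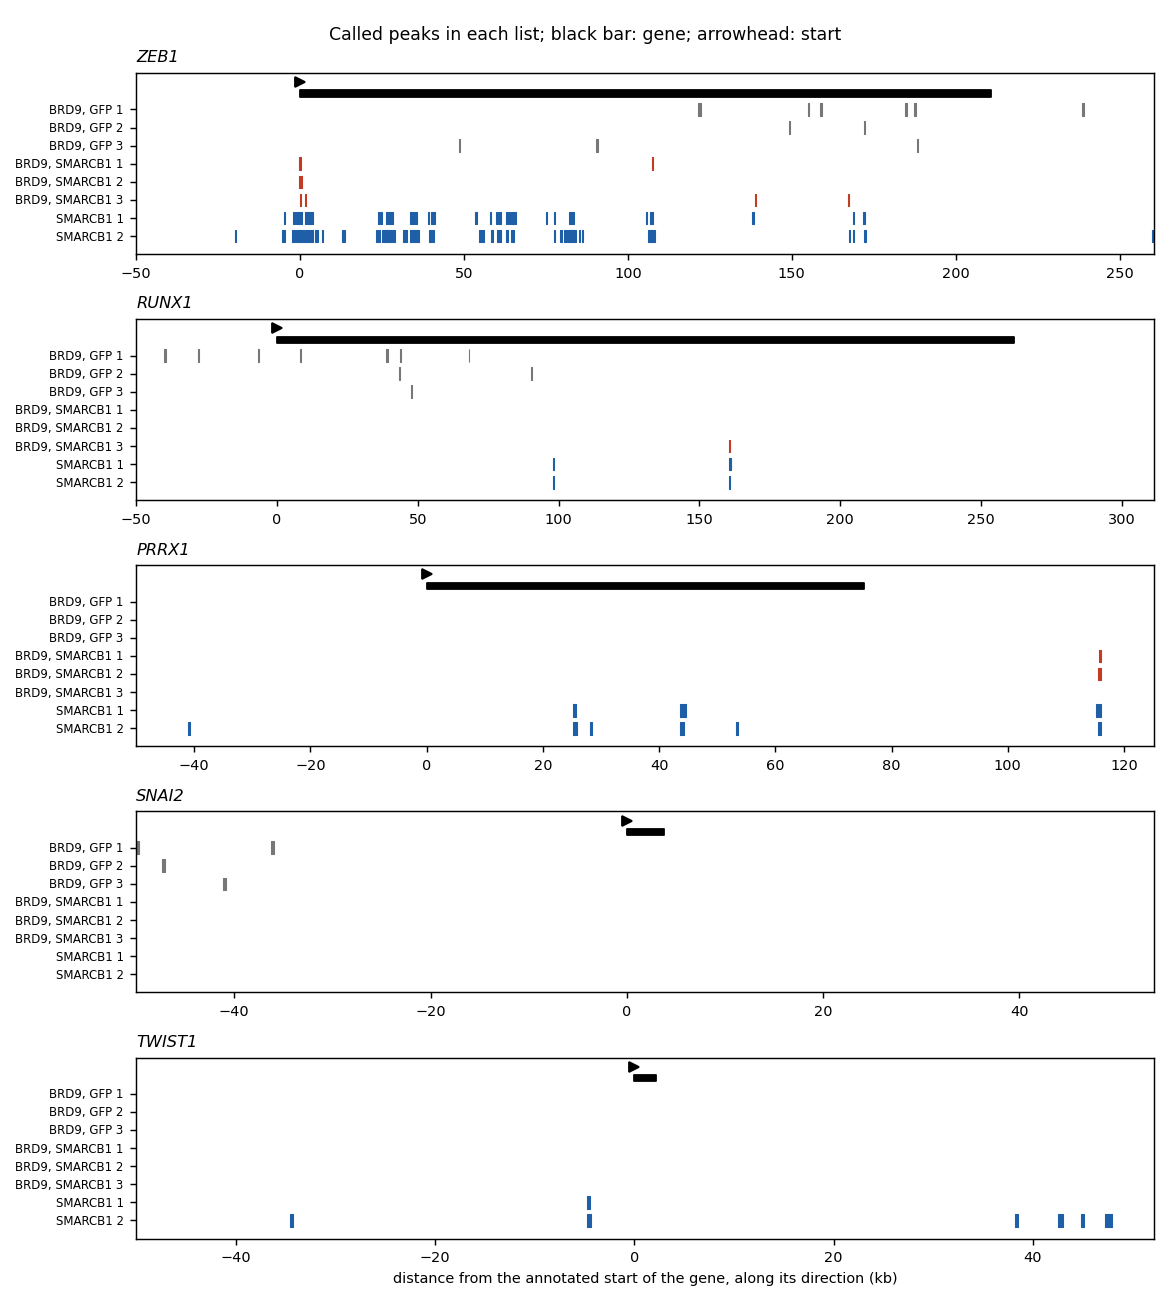
Called peaks in each of the 8 lists along ZEB1, RUNX1, PRRX1, SNAI2 and TWIST1, drawn as for RUNX2, by distance in kb from the annotated start. Red peaks in 3 of 3 lists occur at the start of ZEB1 alone, and the grey peaks of RUNX1, SNAI2 and ZEB1 do not line up between lists.

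Gained regions and SMARCB1 coincided at these loci as they did elsewhere. Of the 16 gained regions 16 overlapped a SMARCB1 region (95.9% of gained regions genome-wide), as did 4 of 4 regions called in all 6 lists (59.6% genome-wide). Of regions called in 1 GFP-induced list alone 6 of 33 did (18.2%, against 12.7%), and of those called in 1 SMARCB1-induced list alone 20 of 28 did (71.4%, against 43.6%). The share of BRD9 peaks at the loci that overlapped SMARCB1 was 28%, 77.3% and 66.7% in the GFP-induced lists and 92.9%, 95.0% and 90.7% in the SMARCB1-induced lists. Genome-wide the shares were 20.5%, 41.7% and 29.4% in the GFP-induced lists and 57.1%, 65.3% and 65.1% in the SMARCB1-induced lists. GFP-induced replicate 1 was the lowest, at the loci and genome-wide. SMARCB1 regions covered 16.4% of the 8 loci and 5.77% of the genome, and the shares were not adjusted for that coverage.

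**Figure D4:**
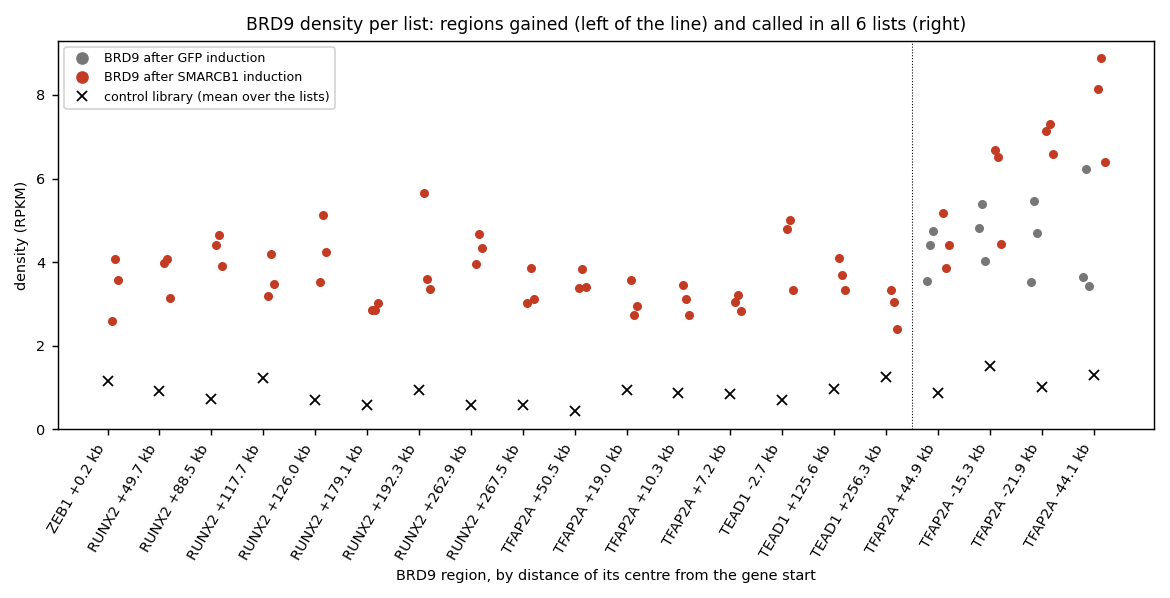
Density in RPKM (vertical axis) in each list for the 16 gained BRD9 regions and, right of the dotted line, the 4 regions called in all 6 lists, named by gene and kb from its start, with GFP-induced lists in grey, SMARCB1-induced lists in red and the control library as crosses. Gained regions have mean densities of 2.91 to 4.38 RPKM, and the TFAP2A region at -44.1 kb has the highest values.

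Seen from SMARCB1, most of its regions at these genes had no called BRD9 in either condition. The share of the 124 SMARCB1 regions with a BRD9 peak was 5.65%, 10.5% and 10.5% in the GFP-induced lists (8.87% ± 2.79, SD, n = 3) and 33.1%, 21.8% and 28.2% in the SMARCB1-induced lists (27.7% ± 5.66). Over all SMARCB1 regions of the genome the means were 9.38% and 22.1%. No GFP-induced list reached the lowest SMARCB1-induced list. With a SMARCB1 peak of either replicate accepted, the difference between the groups fell from 18.8 to 10.2 percentage points. A BRD9 peak in 3 of 3 SMARCB1-induced lists was present in 23 regions (18.5%, against 13.5% genome-wide), 12 of these had none in GFP-induced cells (9.68%, against 7.35%), and 73 of the 124 had none in any list (58.9%, against 63.1%). The 23 had a median SMARCB1 density of 2.09 RPKM and a median width of 3375 bp, and the 73 had 1.38 RPKM and 1400 bp. Median control densities were 0.38 and 0.39 RPKM. Genome-wide the same medians were 1.97 RPKM and 3200 bp with recurring BRD9, and 1.39 RPKM and 990 bp without BRD9. An overlap of 1 bp counted, so a wider region meets the rule more easily, and widths were not matched.

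**Figure D5:**
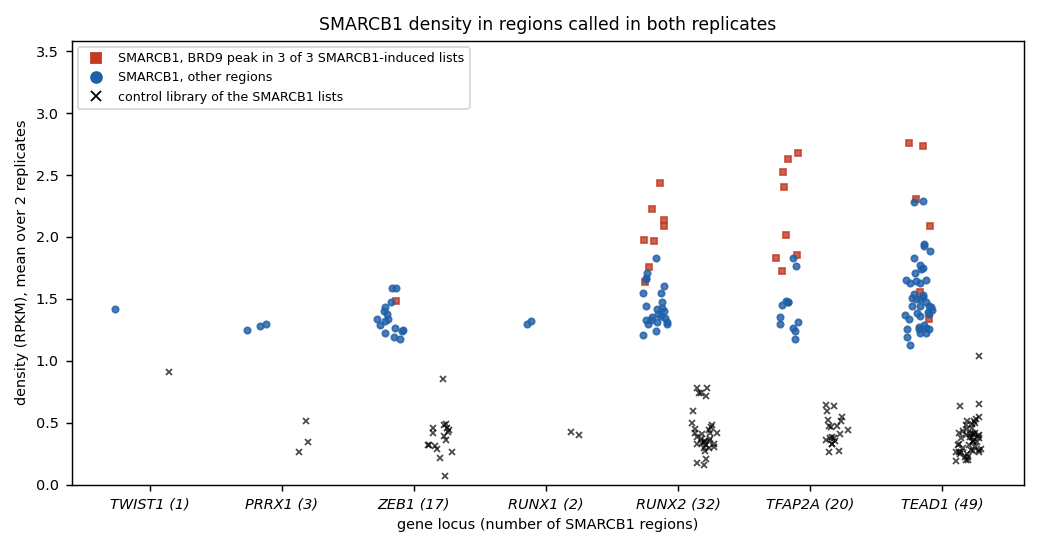
SMARCB1 density in RPKM, mean of 2 replicates, in each SMARCB1 region of the 7 loci that had one (points, left of each tick) and control density in the same regions (crosses, right). Red squares are regions with a BRD9 peak in 3 of 3 SMARCB1-induced lists, and they include the highest values at RUNX2, TFAP2A and TEAD1.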

How the data were processed

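CUT&RUN peak lists of 8 samples were used, grouped by sample title. Per the file headers, each list gives positions, read counts for the sample and for its control, a normalized value, a log2 difference and a −log10 FDR. The deposited normalized values equal RPKM, recomputed from the deposited counts, which gave the library sizes. The log2 difference deposited by the authors compares both counts after adding 1. The deposited −log10 FDR was used as the score, and its lowest value was 3.98 to 4.00. The control of the BRD9 lists (23.1 M reads) is unnamed, and the authors named GFP as the control of the SMARCB1 lists (49.6 M reads). Lists of 1 protein share their control. The submitters' processing notes name BWA 0.7.12-r1039, SAMtools, bedtools, DiffBind and edgeR and the builds hg19, GRCh37 and ASM584v2, with no role. The BRD9 lists state no build of their own and were read as hg19. The peak caller is not given in the sources used here. Peaks were called per sample, so reads below a list's threshold (lowest called density 1.94 to 2.24 RPKM for BRD9, 0.954 and 0.958 for SMARCB1) have no value.

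Peaks sharing at least 1 bp were merged. Reads in called BRD9 peaks were summed per locus and per 200 kb window and fitted with edgeR 4.0.16 (quasi-likelihood, library size only, Benjamini-Hochberg over all windows tested). Regions called in all 6 lists were fitted with limma 3.58.1 on log2 RPKM. DESeq2 1.42.0 was an alternative, with other windows, reaches, call rules, scalings and lists left out. On data simulated for the window fit, edgeR recovered 195 of 200 changed windows with 9 false calls among 7776. Those counts were drawn with a fixed dispersion, and no uncalled peaks were set to 0 as in the real sums. The simulation checks the code and gives no error rate for the real windows. Other work used R 4.3.3, Python 3.11.15, numpy 2.4.6, pandas 2.3.3, scipy 1.17.1 and matplotlib 3.10.9. Library totals set counting precision: a median BRD9 peak held 18 to 23 reads.

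Members and motifs were chosen with earlier results of these data known. All 8 genes were named, with each locus's densest BRD9 and SMARCB1 region, regions over its start, and up to 3 gained or lost regions by score. Other regions named (at TFAP2A those called in all 6 lists and chr6:10403554-10408469, at TEAD1 chr11:12667551-12668676 and chr11:12703351-12718301, and the remaining regions of RUNX1, RUNX2 and TFAP2A) were chosen after their values were seen. Gene strands of TWIST1, SNAI2 and TEAD1 were set by hand. A list of related genes was not counted, since no hg19 annotation was used here. RefSeq promoters were matched by symbol for 5 of 8 genes (13 promoters).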

Additional observations from a re-analysis of the deposited data

How the results depend on the processing

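Under all alternatives run, RUNX2, TFAP2A and TEAD1 kept a higher and ZEB1 and RUNX1 a lower sum of BRD9 reads in SMARCB1-induced cells. RUNX2 missed the threshold with a reach of 100 kb (log2 difference 5.32, edgeR adjusted p = 0.051), and RUNX1, which met the filter through its high group, passed in the upper part of the lists (-7.27, adjusted p = 0.024), giving 1 lower locus in place of 0; this is no support for a difference. With each list left out in turn the log2 differences were 5.49 to 11.57 for RUNX2, 1.38 to 1.99 for TFAP2A, 1.83 to 2.16 for TEAD1, -8.53 to -2.51 for RUNX1 and -1.27 to -0.17 for ZEB1, with 0 to 3 loci higher and 0 lower, 106 to 2153 windows higher (1657 with all lists) and 29 to 545 lower (350). Windows tested numbered 6724 to 7788 in these fits (8113 with all lists). The calls of RUNX2 counted among the loci remain a description. Higher windows numbered 2623 with 100 kb windows, and lower windows 716 with DESeq2. Gained regions (16) numbered 27 and 55 with calls in at least 2 and at least 1 of 3 lists and 8 in the upper part of the lists, and 16 to 24 with a list left out. Genome-wide, gained regions (8217 of 119939) numbered 15138 and 46070, 5415 in the upper part, and 8430 to 10954 with a list left out. Lost regions (0) numbered 33 with at least 1 list, 1 in the upper part and 0 to 1 with a list left out. Genome-wide, lost regions (1246) numbered 51361 with at least 1 list, 971 in the upper part and 1492 to 4440 with a list left out. Regions called in all 6 lists (4) numbered 8 with a reach of 100 kb and 4 to 8 with a list left out, 8 without GFP-induced replicate 1. Among all such regions, those with higher density (26) numbered 101 with medians set equal and 198 without division by length, and those with lower density (57) numbered 238 in the latter. With a list left out they numbered 0 to 183 and 1 to 248. The TFAP2A region starting at 10373463 ranged from -0.035 to 0.19 with a list left out, below 0 without replicate 1 of either group, and was 1.34 without division by length. Those starting at 10434301, 10440626 and 10462751 ranged from 0.18 to 0.49, 0.47 to 0.79 and 0.70 to 1.13 with a list left out, and were 0.61, 0.54 and 1.54 without division by length. SMARCB1 regions (124) numbered 236 with either replicate and 182 to 219 with 1 replicate alone, and the gap in their BRD9 share (18.8 points) was 10.2 and 11.1 to 14.5. Where no cause is stated, the cause was not tested.

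Same-numbered samples deviated together with correlations of 0.19, 0.043 and 0.016 over 8113 windows, so the numbers were not taken to pair samples. With the number as a replicate block, TFAP2A and TEAD1 stayed past the threshold (edgeR adjusted p = 0.037 and 0.025). RUNX2 also stayed (edgeR adjusted p = 0.042), but it met the filter only through its high group, so this is no support. Windows called were 593 higher and 154 lower, and regions called in all 6 lists 58 higher and 134 lower. Of the latter, 2 TFAP2A regions passed (limma adjusted p = 0.041 and 0.0034). Gained and lost regions by pairs numbered 29 and 1 (16678 and 8013 genome-wide). Called peaks hold few reads at BRD9 depth, and a missing peak is not absence.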

Other observations

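The distance to the nearest recurring BRD9 region outside the loci differed between the genes with few peaks. From TWIST1 the nearest region called in 3 of 3 SMARCB1-induced lists lay 287 kb away and was itself gained, and the nearest called in 3 of 3 GFP-induced lists lay 606 kb away. From PRRX1 these distances were 131 kb and 479 kb, and from RUNX1 251 kb and 577 kb. From SNAI2 they were 403 kb and 324 kb, and the nearest SMARCB1 region lay 128 kb away. ZEB1 had the gained region at its start but no region called in 3 of 3 GFP-induced lists within 73.2 kb. RUNX2 had none of the latter within 591 kb.

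SMARCB1 coverage ordered the loci as TFAP2A (48.1%), TEAD1 (38.5%), RUNX2 (23.1%), ZEB1 (8.50%), PRRX1 (1.46%), TWIST1 (0.440%), RUNX1 (0.360%) and SNAI2 (0%). The 4 loci with gained BRD9 regions were the first 4 in that order. Loci differ in length from 102 to 370 kb, and the order was not tested.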
